A study of Mus musculus with 20 samples.

Results

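Insulin lowers blood glucose mainly by moving the transporter GLUT4 to the surface of muscle and fat cells. The hormone binds the insulin receptor, which phosphorylates adaptor proteins such as IRS1. These recruit phosphoinositide 3-kinase, and the lipid that this enzyme makes activates the AKT kinases. AKT in turn inhibits the GSK3 kinases, which releases glycogen synthesis, and sends GLUT4 vesicles to the membrane. IGF1, a growth factor made under growth hormone control, signals through a related receptor and much of the same chain. The 9 genes described here stand at these steps: the transporters Slc2a4 (GLUT4) and Slc2a3 (GLUT3), the receptor Insr, the adaptor Irs1, the phosphoinositide 3-kinase regulatory subunit Pik3r1, the kinases Akt1, Akt2 and Gsk3a, and the growth factor Igf1.

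Members were taken as all probe sets that the platform annotation assigns to those symbols alone. All 9 genes were on the array, with 12 probe sets (3 genes had 2 each and 6 genes had 1), among 8251 genes with a probe set of their own. The study measured mouse RNA on 20 short-oligonucleotide arrays and concerns sleep apnea and glucose metabolism. Of these arrays, 8 held subcutaneous adipose tissue of mice aged 12 weeks, in 4 groups of 2: Glucose with hypoxia, Glucose without hypoxia, Con with hypoxia and Con without hypoxia. For hypoxia, oxygen was lowered to 5% from the 20.9% of air within 30 s and returned to 20% within 30 s, 16 hours daily during 5 days, while room air was cycled for the mice without it. The labels name C57BL-6J mice and C57BL-6J-Lep (on a pair of samples, C57BL-6J-LepOb) mice without saying which array held which, and do not explain the words Glucose and Con. The other 12 arrays held skeletal muscle, heart, lung and brain of C57BL-6J mice aged 20 weeks, 1 array per tissue for each of hypoxia, sleep fragmentation and control. Nothing in the labels says that arrays of a group came from separate animals. In adipose tissue, p-values measure the spread between the 2 arrays of a group, which may be technical. In the panel, they measure what is left over after additive effects of tissue and condition, not a spread between replicates. The 3 arrays of a tissue are its 3 conditions, so an SD with n = 3 includes differences between conditions.

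Median intensity per array lay between 265 and 293 in adipose tissue and between 349 and 411 in the tissue panel, except for 1475 on the brain hypoxia array. Probe sets for Actb and Gapdh gave a quotient of 3'-end over 5'-end signal. For Actb it was 0.0288 to 0.0635 in lung, 0.0343 in brain hypoxia and 0.662 to 1.52 on the other panel arrays. For Gapdh it was 0.00899 to 0.264 in muscle, 0.136 in heart hypoxia and 0.443 to 1.60 on the other panel arrays. In adipose tissue the quotients were 0.756 to 1.70 and 0.802 to 1.02. Their bearing on the differences between tissues was not tested. In the panel, values below are intensities after quantile normalization. Most defining markers were high in the labelled tissue: the muscle troponin Tnnt3 was at 16125 to 17410 in muscle, the cardiac myosin Myh6 at 4842 to 16385 in heart, the surfactant gene Sftpb at 4513 to 7320 in lung, and the synaptic gene Snap25 at 13762 to 15495 in brain. Skeletal alpha actin, Acta1, did not follow the labels, at 563 to 1605 in muscle, 4933 to 6413 in heart, 106 to 9953 in lung and 393 to 7863 in brain. A few arrays also carried markers of another tissue. On the lung hypoxia array Tnnt3 was at 1531, against 119 and 48.5 on the lung fragmentation and control arrays, and Myh6 was at 2192 to 2852 on all 3 lung arrays. On the brain control array Scgb1a1, a gene of airway club cells, was at 12894, against 456 and 557 on the brain hypoxia and fragmentation arrays. The same array had a summed intensity of 9 muscle fibre markers of 16416, against 8869 and 7449 on those arrays. Acta1, which did not follow the labels, made up 7863, 3601 and 393 of these sums. Sftpb was at 217, 67.2 and 109 on the brain control, hypoxia and fragmentation arrays. In lung Scgb1a1 was at 384 under hypoxia, 8685 under fragmentation and 314 in the control. Member results between tissues are therefore given with and without the brain hypoxia, brain control and lung hypoxia arrays wherever leaving one out changed a call. All 7 adipocyte markers measured exceeded the offset of 97.7 (the 20th percentile of positive values) on all 8 adipose arrays. The adipose arrays also differed in markers of brown fat, muscle fibres and lymphocytes, given beside the results below. In such bulk samples, fewer cells of a type and less RNA per cell cannot be told apart.

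The largest differences measured among these genes lay between tissues. Slc2a4, which encodes the insulin-responsive transporter GLUT4, had 5272 in hypoxia muscle, 5665 in fragmentation muscle and 5655 in control muscle. In heart its intensities were 5864, 3451 and 5731 under the same conditions in the same order. In lung they were 462, 69.0 and 134, and in brain 94.9, 81.1 and 77.1. Every muscle and heart array thus exceeded every lung and brain array. Of all probe sets tested, 69.2% did not overlap between muscle and lung and 58.5% between muscle and brain. The shares were 63.6% for heart and lung and 53.7% for heart and brain. Muscle averaged 5531 ± 224, heart 5016 ± 1356, lung 222 ± 210 and brain 84.4 ± 9.37 (SD, n = 3 each).

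The differences in the next paragraphs are on the scale log2(intensity + 97.7), which understates the change of dim genes. They were tested with limma across 7453 probe sets, with Benjamini-Hochberg adjustment over all of them and a threshold of 0.05. Slc2a4 was higher in muscle than in lung by 4.34 ± 0.31 (SE, 20.2-fold, limma adjusted p = 2.82e-06) and higher in muscle than in brain by 4.95 ± 0.31 (30.9-fold, limma adjusted p = 8.98e-07). Heart exceeded lung 17.9-fold (limma adjusted p = 4.67e-06) and brain by 4.77 ± 0.31. Of the neighbours in the order, heart and lung were apart, while muscle minus heart, 0.18 ± 0.31 (limma adjusted p = 0.726), and lung minus brain, 0.61 ± 0.31 (limma adjusted p = 0.127), did not pass the threshold. The lung array with the most Slc2a4, hypoxia, was also the one with Tnnt3 at 1531. Without it, muscle minus lung was 4.79 and lung minus brain 0.16. The part of muscle RNA in the lung level was not tested.

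**Figure D1:**
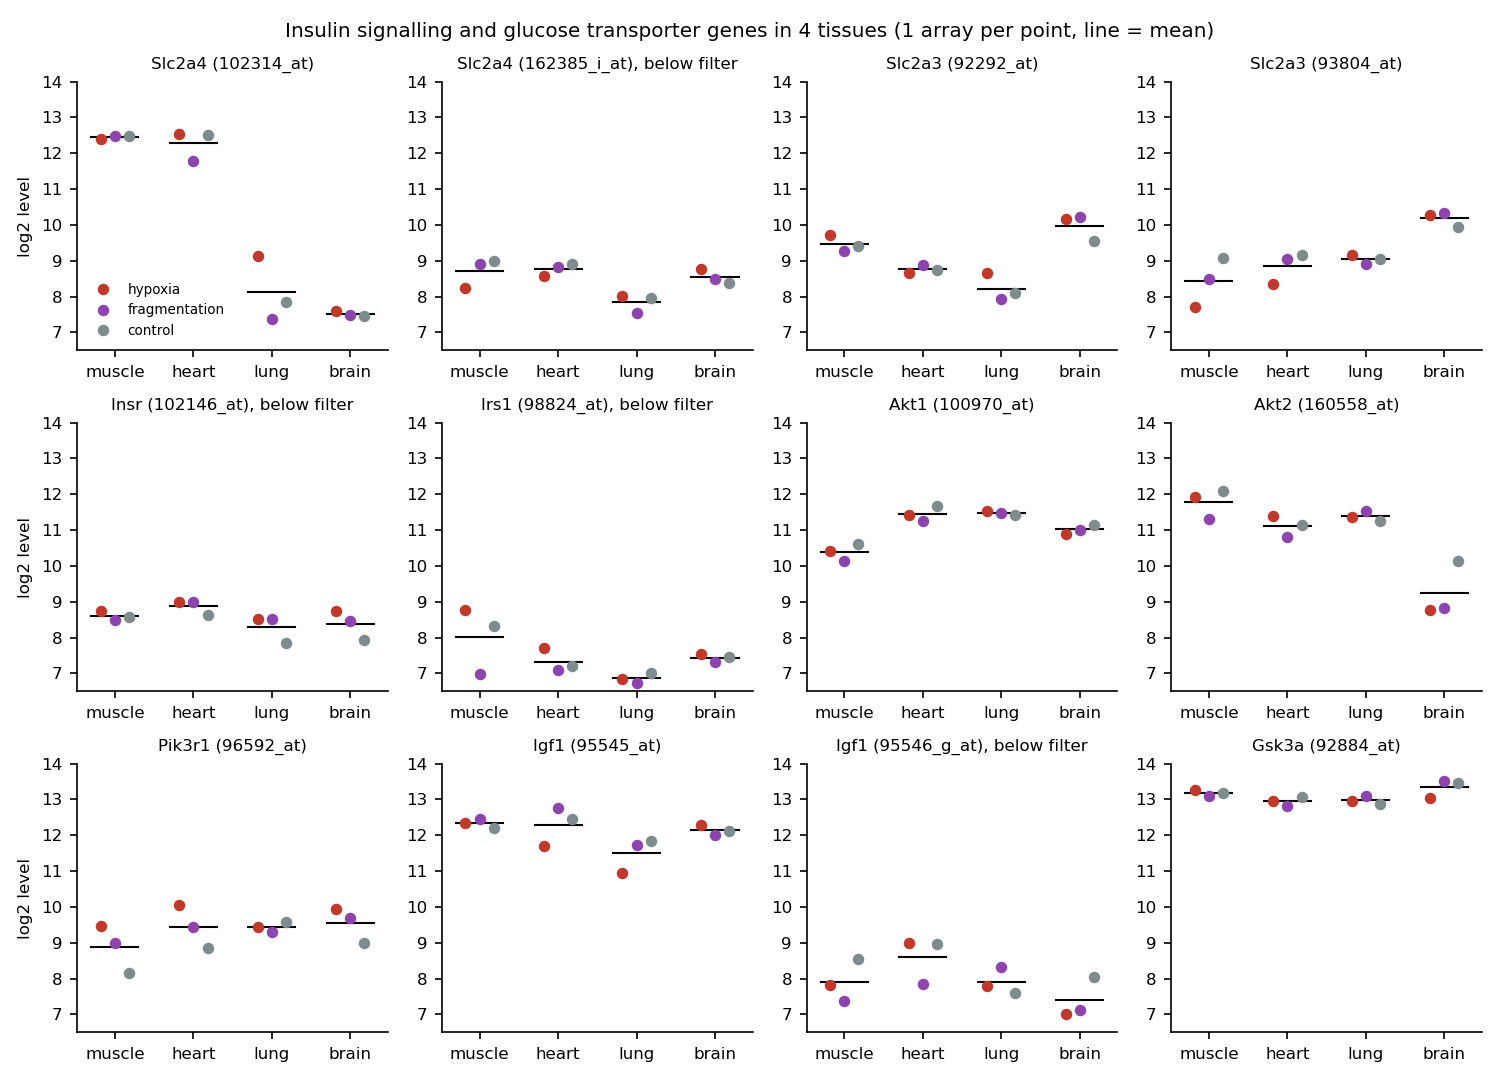
Level of each of the 12 member probe sets, as log2(normalized intensity + 97.7) on the vertical axis, in muscle, heart, lung and brain. Each point is 1 array (red hypoxia, purple sleep fragmentation, grey control) and the line is the mean of 3, so that Slc2a4 (102314_at) stands high in muscle and heart, Slc2a3 highest in brain and Akt2 lowest in brain, while 4 probe sets marked "below filter" stay dim everywhere.

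The other Slc2a4 probe set, 162385_i_at, was dim, with 88.1 to 408 over the 12 arrays, and did not pass the filter on low values. It correlated with the first at r = 0.60 over the 12 arrays, which share tissues, but did not show the low brain level. Its mean was 333 ± 110 in muscle, 342 ± 54.9 in heart, 134 ± 39.9 in lung and 278 ± 53.0 in brain (SD, n = 3 each). In a fit without the filter, muscle minus brain was 0.17 ± 0.23 (limma adjusted p = 0.620). Muscle (0.87, limma adjusted p = 0.0126) and heart (0.93, limma adjusted p = 0.0116) exceeded lung there, and lung minus brain was -0.70 (limma adjusted p = 0.0409), opposite in sign to 102314_at. Genes whose levels followed Slc2a4 (102314_at) most closely over the 12 arrays were Pgam2, the muscle phosphoglycerate mutase, at r = 0.992, Nrap, an actin-anchoring protein of striated muscle, at 0.990, and Apobec2 at 0.988. These correlations are descriptions across arrays that share a tissue and carry no test.

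Slc2a3 encodes GLUT3, the main glucose transporter of neurons. Its probe set 93804_at had 1152, 1191 and 891 in brain under hypoxia, fragmentation and control. In lung it had 478, 388 and 430, in heart 229, 430 and 479, and in muscle 111, 264 and 438. All 3 brain arrays lay above the other 9. Of all probe sets tested, 58.5%, 53.7% and 62.7% did not overlap between brain and muscle, heart and lung. The 92292_at probe set also had its highest mean in brain, 926 ± 242, but muscle came next at 620 ± 117, then heart at 338 ± 33.3 and lung at 208 ± 85 (SD, n = 3 each).

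Both Slc2a3 probe sets were lower in heart and in lung than in brain. For 93804_at heart minus brain was -1.33 and lung minus brain -1.14, and for 92292_at heart minus brain was -1.20 (limma adjusted p = 0.00116) and lung minus brain -1.75 (limma adjusted p = 8.20e-05). They parted over muscle. Muscle minus brain was -1.77 and past the threshold for 93804_at, but -0.49 (limma adjusted p = 0.0798) for 92292_at, which passed without the brain control array, at -0.67 (limma adjusted p = 0.0440). Muscle minus lung was 1.25 and passed for 92292_at, and -0.62, not past the threshold, for 93804_at. The muscle minus heart difference of 92292_at, 0.71 ± 0.22 (limma adjusted p = 0.0374), lost its call without the control, the fragmentation or the hypoxia arrays, with adjusted p of 0.140, 0.0569 and 0.224. Its heart minus lung difference, 0.54 (limma adjusted p = 0.0569), passed without the lung hypoxia array, at 0.70 (limma adjusted p = 0.0451), and without the brain control array (limma adjusted p = 0.0487). Lung minus brain of 93804_at was not past the threshold without the fragmentation arrays (limma adjusted p = 0.101). The levels of the 2 probe sets correlated at r = 0.40 over the 12 arrays. The genes nearest to 93804_at were Atp6v1a, a subunit of the vacuolar proton pump, at r = 0.944, Gm1673 at 0.926 and Tmeff2 at 0.916.

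Receptor and adaptor were dim throughout. Insr, the insulin receptor, had 330, 263 and 284 in muscle under hypoxia, fragmentation and control, 416, 413 and 301 in heart, 271, 273 and 133 in lung, and 333, 257 and 145 in brain. Irs1 had its highest values in muscle, 341 under hypoxia and 221 in the control, but 29.9 under fragmentation, and lay between 9.54 and 111 in the other tissues. Neither passed the filter. In a fit without the filter, heart exceeded lung in Insr by 0.57 ± 0.18 (limma adjusted p = 0.0304) and muscle exceeded lung in Irs1 by 1.17 ± 0.30 (limma adjusted p = 0.00939).

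Pik3r1 encodes the p85 alpha subunit that docks phosphoinositide 3-kinase on IRS proteins. It had 606, 411 and 189 in muscle under hypoxia, fragmentation and control, 967, 593 and 363 in heart, 594, 536 and 663 in lung, and 886, 730 and 411 in brain. No tissue pair passed the threshold, and the nearest, muscle minus brain, was -0.67 (limma adjusted p = 0.0501). Without the lung hypoxia array the differences of muscle from brain (-0.67, limma adjusted p = 0.0336) and from lung (-0.83, limma adjusted p = 0.0241) passed.

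The AKT kinases had different tissue orders. Akt1, the widely expressed form, had 1271, 1035 and 1468 in muscle under hypoxia, fragmentation and control, 2634, 2348 and 3142 in heart, 2844, 2742 and 2641 in lung, and 1808, 1960 and 2167 in brain. All 3 muscle arrays lay below the other 9. Of all probe sets tested, 38.2%, 69.2% and 58.5% did not overlap between muscle and heart, lung and brain. Muscle was lower than heart (muscle minus heart -1.05 ± 0.16, limma adjusted p = 0.00108), lower than lung (-1.08, limma adjusted p = 0.000251) and lower than brain (-0.62, limma adjusted p = 0.00796). The muscle minus brain call was lost without the fragmentation arrays (limma adjusted p = 0.102). Akt1 also exceeded its brain level in heart (0.43, limma adjusted p = 0.0486) and lung (0.46, limma adjusted p = 0.0348). Both of these calls were lost without any one of the brain hypoxia (adjusted p = 0.136 and 0.112), brain control (0.110 and 0.0801) and lung hypoxia (0.0659 and 0.121) arrays.

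Akt2, the form most closely tied to insulin's control of glucose uptake, had 3798, 2418 and 4279 in muscle under hypoxia, fragmentation and control, 2584, 1696 and 2154 in heart, and 2545, 2867 and 2364 in lung. In brain it had 335, 359 and 1019. Every brain array lay below the other 9, where the shares of all probe sets without overlap are those given for Slc2a3. The control array was the highest of the 3 brain arrays. That array also had Scgb1a1 at 12894 and the muscle fibre sum of 16416, of which Acta1 made up 7863. The part of other tissues' RNA in its Akt2 value was not tested. Muscle exceeded brain by 2.53 (limma adjusted p = 8.22e-05), heart exceeded brain by 1.87 (limma adjusted p = 0.000638) and lung exceeded brain by 2.15 (limma adjusted p = 0.000223). Without the brain control array these differences were 2.94, 2.27 and 2.55. Muscle, heart and lung were not separated from each other: muscle minus heart was 0.66 (limma adjusted p = 0.146), muscle minus lung 0.38 and heart minus lung -0.28.

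Gsk3a, the alpha form of the kinase that inhibits glycogen synthase, ran from 7156 to 11667 over the 12 arrays, and no tissue pair passed. Its brain values were 8257 under hypoxia, 11667 under fragmentation and 11236 in the control. Without the brain hypoxia array, heart minus brain was -0.60 (limma adjusted p = 0.0235) and lung minus brain -0.56 (limma adjusted p = 0.0310).

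Igf1 probe set 95545_at had 5061, 5551 and 4619 in muscle under hypoxia, fragmentation and control, 3222, 6828 and 5456 in heart, 1879, 3313 and 3582 in lung, and 4848, 4053 and 4365 in brain. Lung was the lowest, below muscle (muscle minus lung 0.82, limma adjusted p = 0.0178) and heart (heart minus lung 0.79, limma adjusted p = 0.0255), although the heart and lung arrays overlapped. Without the lung hypoxia array these differences were 0.62 (limma adjusted p = 0.0939) and 0.58 (limma adjusted p = 0.126), no longer past the threshold. Both were also lost without the fragmentation arrays (adjusted p = 0.0616 and 0.148), muscle minus lung without the hypoxia arrays (0.0616) and heart minus lung without the control arrays (0.0818). Probe set 95546_g_at ranged from 31.3 to 413 and did not pass the filter. Its mean was lowest in brain, at 80.7, with 146 in lung, 158 in muscle and 316 in heart. In a fit without the filter, its heart minus brain difference was 1.21 ± 0.36 (limma adjusted p = 0.0311). For 95545_at, in the main fit, heart minus brain was 0.16 ± 0.26 (limma adjusted p = 0.638). The pair correlated at r = -0.08 over the 12 arrays. The closest genes to 95545_at were Bad, an apoptosis regulator that AKT phosphorylates, at r = 0.942, Krt2 at 0.938 and Cat, the gene of catalase, at 0.934.

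**Figure D2:**
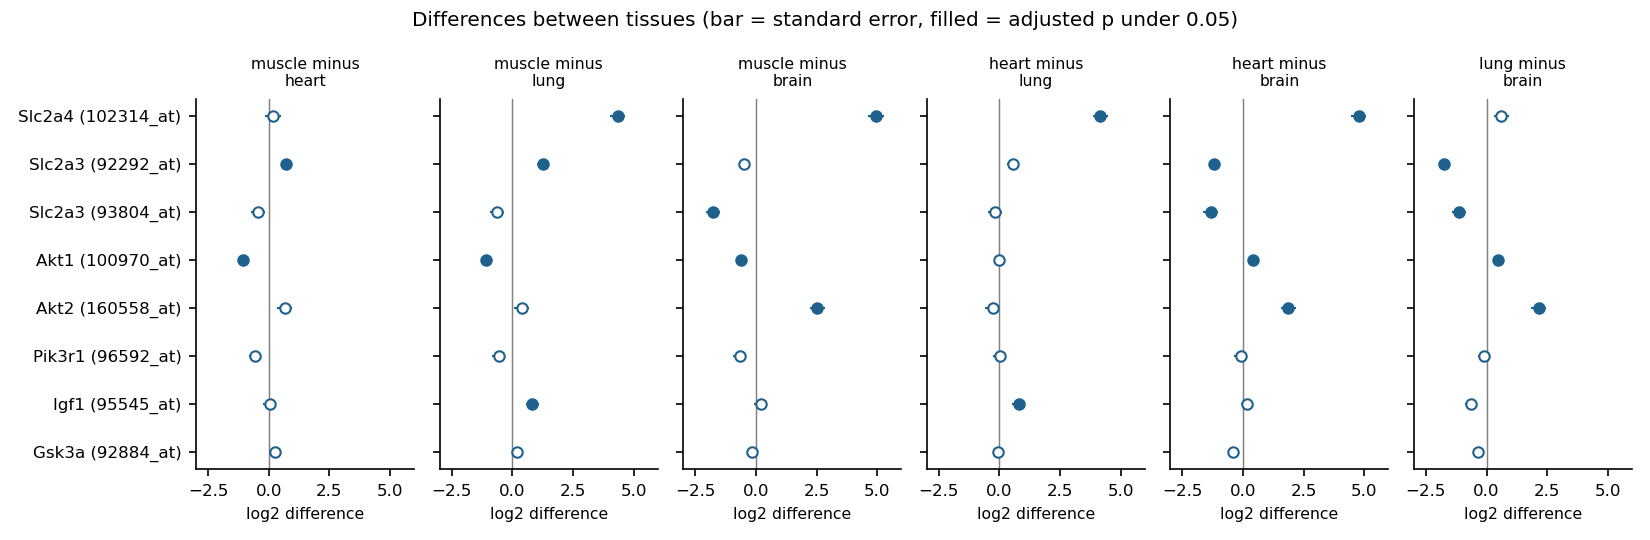
Log2 difference between tissues (horizontal axis, first-named tissue minus second, bar = standard error) for the 8 member probe sets that passed the filter. Filled points passed an adjusted p of 0.05, and Slc2a4 lies farthest from 0 wherever muscle or heart is set against lung or brain.

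Of the 8 member probe sets tested, the number past the threshold was 2 for muscle minus heart, where 24.7% of all probe sets tested passed. It was 4 for muscle minus lung (61.6% of all probe sets) and 4 for muscle minus brain (51.6%). It was 2 for heart minus lung (52.9%), 5 for heart minus brain (45.6%) and 4 for lung minus brain (51.1%). The filter keeps a probe set by its highest tissue mean, so a gene bright in 1 tissue enters through that tissue, and nothing is read from how these counts compare with the shares over all probe sets.

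No member passed the threshold for hypoxia or for sleep fragmentation in the tissue panel. In hypoxia minus control over the 4 tissues, limma called 0 of 8 members, against 0% of all probe sets, with 371 of 7453 at an unadjusted p under 0.05. In sleep fragmentation minus control it also called 0 of 8, against 0% of all, with 335 at an unadjusted p under 0.05. Of the 8 member probe sets that passed the filter, Pik3r1 was the 1 with an unadjusted p under 0.05 in hypoxia. Its difference was 0.83 ± 0.22 (limma adjusted p = 0.908) and the hypoxia array exceeded the control array in 3 of 4 tissues, lung being the exception. Under sleep fragmentation the difference was 0.46 ± 0.22 (limma adjusted p = 0.970), again positive in 3 of 4 tissues. These comparisons share their control arrays.

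Slc2a4 (102314_at) differed between hypoxia and control by 0.34 ± 0.27, or by -0.01 ± 0.20 without the lung hypoxia array, and between fragmentation and control by -0.29 ± 0.27. The fragmentation heart, at 3451, was the lowest of the 6 muscle and heart arrays. For Slc2a3 the probe sets had opposite signs under hypoxia, 0.35 ± 0.19 for 92292_at and -0.43 ± 0.25 for 93804_at. Akt2 differed by -0.54 ± 0.27 under fragmentation and was lower in 3 of 4 tissues, lung being higher. Without the brain control array this difference was -0.23 ± 0.22, and under hypoxia Akt2 differed by -0.29 ± 0.27 with that array and 0.01 ± 0.22 without it. Akt1 differed by -0.15 ± 0.14 under hypoxia, Igf1 (95545_at) by -0.34 ± 0.22 and Gsk3a by -0.10 ± 0.15, all with a limma adjusted p above 0.9. For Igf1 the difference was -0.55 ± 0.22 without the brain hypoxia array and -0.19 ± 0.24 without the lung hypoxia array. Insr, below the filter, differed by 0.51 ± 0.16 under hypoxia in the fit without a filter (limma unadjusted p = 0.00887, limma adjusted p = 0.935). Under fragmentation Insr differed by 0.38 ± 0.16 in that fit (limma unadjusted p = 0.0369, limma adjusted p = 0.984).

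Adipose tissue showed no member past the threshold in any of its 5 comparisons. Deposited intensities are given here, and the tests ran on their log2 after values under 97.7 had been set to 97.7. For Glucose minus Con, limma called 0 of 8 members, where 7.58% of all probe sets passed (565 of 7453), and 1 member and 1789 probe sets had an unadjusted p under 0.05. For hypoxia minus non-hypoxia over the 8 arrays, 0 of 8 members and 0% of all probe sets passed, and 0 members and 110 probe sets had an unadjusted p under 0.05. Within Glucose (0%), within Con (0%) and for the difference between those hypoxia effects (0%), 0 of 8 members passed as well. There, 1, 0 and 1 members and 159, 218 and 246 probe sets had an unadjusted p under 0.05.

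Slc2a4 (102314_at) was measured at 2018 and 2588 on the Glucose hypoxia arrays and at 1219 and 2357 on the Glucose non-hypoxia arrays. The Con hypoxia arrays had 2446 and 1924, and the Con non-hypoxia arrays 3978 and 3174. The Con non-hypoxia arrays were the highest pair, and the Glucose and Con sides overlapped. Glucose minus Con was -0.50 ± 0.29 (limma adjusted p = 0.351). Hypoxia minus non-hypoxia was 0.43 ± 0.41 within Glucose and -0.71 ± 0.41 within Con, where the arrays did not overlap, as for 25.9% of all probe sets. The difference between these effects was 1.14 ± 0.58 (limma adjusted p = 0.999).

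The adipose arrays differed in muscle fibre and brown fat markers, and GLUT4 is a gene of both cell types. The summed intensity of 9 muscle fibre markers was 59183 and 111645 in Glucose hypoxia, 15704 and 140019 in Glucose non-hypoxia, 75141 and 62061 in Con hypoxia, and 87346 and 195399 in Con non-hypoxia. The array with the lowest Slc2a4, Glucose non-hypoxia replicate 1, had the lowest muscle sum. It also had the lowest sum of 7 adipocyte markers, 45254, with 55947 to 145307 on the other adipose arrays. Its sum of 6 endothelial markers, 15171, was the highest of the adipose arrays. Of the muscle markers, 7 of 9 exceeded the offset on that array and all 9 on each other adipose array. The sum of 6 brown adipocyte markers was 978 to 2696 on the 4 Glucose arrays (2 to 4 markers above the offset). In Con it was 84179 and 3588 with hypoxia and 64170 and 10009 without (2 to 6 markers above the offset). The part of any of these cell types in the Slc2a4 values was not tested.

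**Figure D3:**
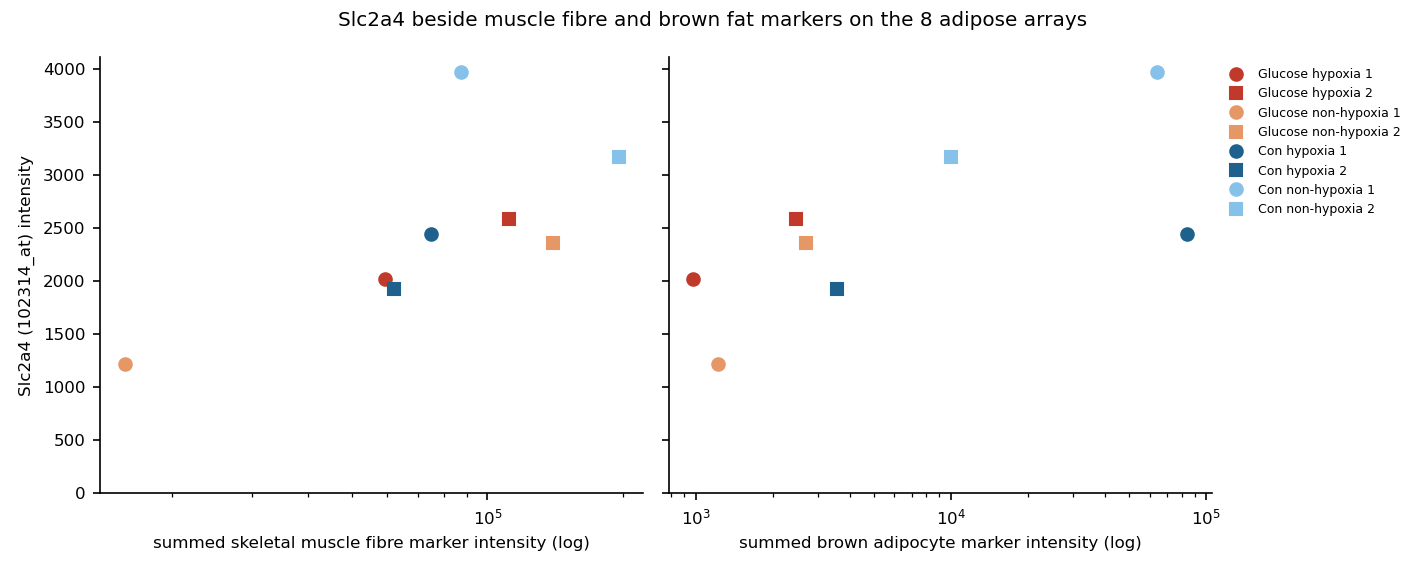
Deposited intensity of Slc2a4 (102314_at, vertical axis, linear) against the summed intensity of 9 skeletal muscle fibre markers (left) and 6 brown adipocyte markers (right, both horizontal axes logarithmic) on the 8 adipose arrays, each point 1 array. The Glucose non-hypoxia array at 1219 has the lowest muscle sum, 15704, and the Con arrays numbered 1 stand apart in brown fat markers, at 84179 and 64170.

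Slc2a3 (93804_at) was dim in fat, at 300 and 161 in Glucose hypoxia, 276 and 101 in Glucose non-hypoxia, 411 and 306 in Con hypoxia, and 182 and 491 in Con non-hypoxia. The Glucose and Con arrays overlapped. Glucose minus Con was -0.77 ± 0.46 (limma adjusted p = 0.367). The other Slc2a3 probe set did not exceed 57.7, the other Slc2a4 probe set 68.6, and Irs1 14.6, while Insr lay between -159 and -61.8 on all 8 arrays. Every adipose value of these 4 probe sets was under 97.7 and was set to the lowest log2 level of 6.61. The tests could therefore show no difference in them.

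Pik3r1 had the largest hypoxia difference of the members within Glucose. The Glucose hypoxia arrays had 1036 and 1107, against 724 and 237 on the Glucose non-hypoxia arrays, with no overlap, as for 24.5% of all probe sets. The Con hypoxia arrays had 332 and 415, against 776 and 403 on the Con non-hypoxia arrays, which overlapped. Within Glucose the difference was 1.37 ± 0.57 (limma adjusted p = 1) and within Con -0.59 ± 0.57. The difference between the hypoxia effects was 1.96 ± 0.81 (limma adjusted p = 0.999). Glucose minus Con was 0.55 ± 0.40.

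Akt1 ranged from 1017 to 1736 on the Glucose arrays and from 1466 to 1836 on the Con arrays (Glucose minus Con -0.16 ± 0.26). Akt2 had 2086 and 5534 in Glucose hypoxia, 3144 and 2768 in Glucose non-hypoxia, 6218 and 3891 in Con hypoxia, and 6104 and 3511 in Con non-hypoxia. In Con, the arrays with 6218 and 6104 were those with high brown fat markers. The Glucose hypoxia array with 5534 had a brown adipocyte marker sum of 2473. The part of brown fat in the Akt2 values was not tested. Glucose minus Con for Akt2 was -0.59 ± 0.38 (limma adjusted p = 0.401). Gsk3a ranged from 8882 to 11370 on Glucose arrays and from 8627 to 11191 on Con arrays (0.00 ± 0.22). Within Con, the Gsk3a arrays with hypoxia, 8627 and 8827, lay below those without, 10591 and 11191 (-0.32 ± 0.31, limma adjusted p = 1). Of all probe sets, 25.9% did not overlap there.

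Igf1 (95545_at) had 1175 and 1480 in Glucose hypoxia, 1020 and 1140 in Glucose non-hypoxia, 2247 and 2034 in Con hypoxia, and 1388 and 2436 in Con non-hypoxia. Except for 1388, each Con array exceeded all Glucose arrays. The difference, -0.73 ± 0.26, was the 1 with an unadjusted p under 0.05 and had a limma adjusted p of 0.146. Probe set 95546_g_at, with 1513 to 3324 on Glucose arrays and 1799 to 4146 on Con arrays, differed by -0.22 ± 0.35, and the pair correlated at r = 0.08 over the 8 arrays. Within Glucose, the hypoxia arrays lay above the others without overlap in both probe sets, as for 24.5% of all probe sets, with differences of 0.29 ± 0.37 and 0.62 ± 0.49 (limma adjusted p = 1 for each). Lymphocyte markers moved with the Glucose and Con words: the sum of 6 T cell markers was 101 to 577 on Glucose arrays and 2665 to 4267 on Con arrays, and that of 5 B cell markers 1124 to 2025 on Glucose arrays and 7154 to 10850 on Con arrays. Their part in the member values was not tested.

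**Figure D4:**
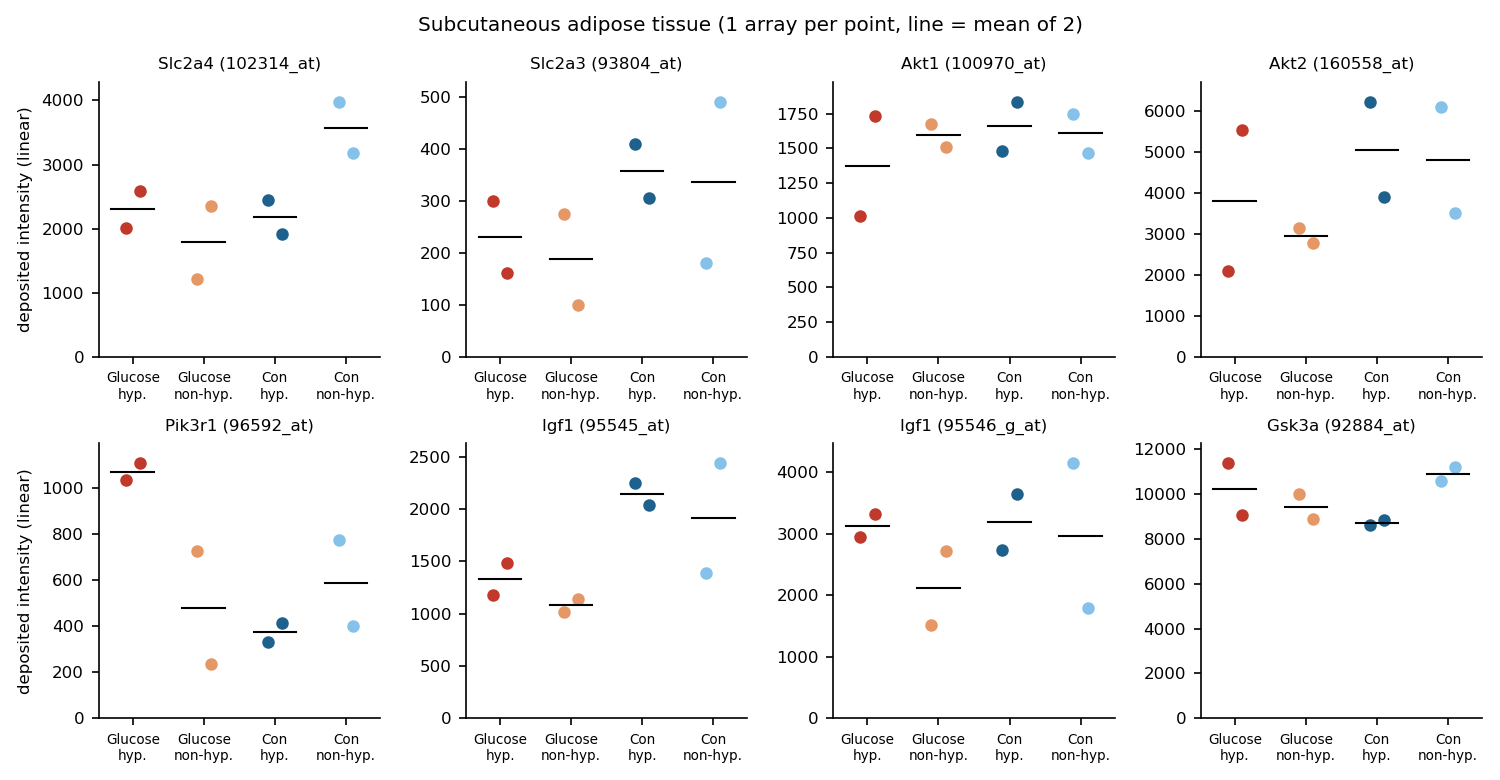
Deposited intensity (vertical axis, linear) of the 8 member probe sets that passed the filter on the 8 adipose arrays. Each point is 1 array and the line is the mean of 2. Pik3r1 is highest on both Glucose hypoxia arrays (1036 and 1107), and Slc2a4 on both Con non-hypoxia arrays (3978 and 3174).

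**Figure D5:**
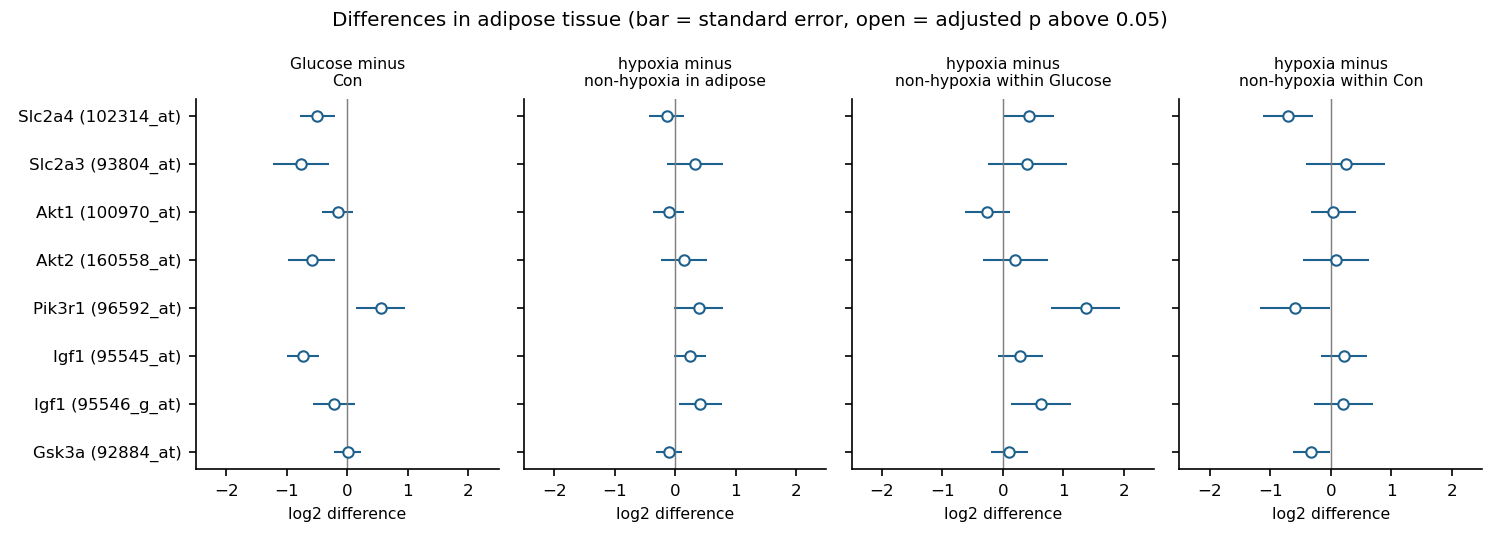
Log2 difference (horizontal axis, bar = standard error) of the same 8 probe sets in 4 adipose comparisons. All points are open because none passed an adjusted p of 0.05, and Pik3r1 within Glucose, at 1.37, lies farthest from 0.

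Other genes of the pathway were taken from 5 lists. In adipose Glucose minus Con, 3 of 39 genes tested passed (7.69%), close to the 7.58% of all probe sets. On the list from the receptor to AKT, 1 of 9 genes tested was higher and 0 lower: Sos1, a Ras exchange factor, rose by 1.48 ± 0.26 (limma adjusted p = 0.0173). On the growth factor axis, 1 of 9 was higher and 1 lower. Igfals, the acid-labile subunit that carries IGF complexes in serum, was 2.67 ± 0.36 higher (limma adjusted p = 0.00589) with 1 Con array at the lowest log2 level. Igfbp6, an IGF-binding protein, fell by 1.57 on the log2 scale (SE 0.34, limma adjusted p = 0.0343). No gene passed of 5 for glucose entry, 10 downstream of AKT and 6 inhibitors. The nearest were Hk2, muscle hexokinase, at 1.02 (adjusted p = 0.0901), Eif4ebp1, a translation repressor, at -0.88 (0.0908) and Ppp2ca, a phosphatase catalytic subunit, at 1.14 (0.0631).

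The Igfals call held without each array in turn but not without both Con arrays numbered 1 (limma adjusted p = 0.0684) or within s2 arrays (0.119). In the fit without the filter, the calls of Igfals, Sos1 and Igfbp6 were all lost (limma adjusted p = 0.0505, 0.0506 and 0.122). Sos1 lost its call without Con non-hypoxia replicate 2 (limma adjusted p = 0.0599), Glucose hypoxia replicate 1 (0.0790) or 2 (0.0630), or Glucose non-hypoxia replicate 1 (0.0559). Igfbp6 lost its call without Con hypoxia replicate 2, either Con non-hypoxia array, either Glucose hypoxia array or Glucose non-hypoxia replicate 1 (limma adjusted p = 0.0687 to 0.124). No gene of the lists passed for hypoxia in adipose tissue, or for hypoxia or fragmentation in the panel.

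Between tissues, 4 glucose entry genes other than the members were tested. Hk2, which phosphorylates glucose in muscle, exceeded its brain level 20.8-fold in muscle (limma adjusted p = 2.15e-06) and 17.5-fold in heart (limma adjusted p = 3.51e-06). It exceeded its lung level 6.61-fold in muscle and 5.56-fold in heart. Slc2a1, the GLUT1 transporter of the blood-brain barrier, was lower in muscle than in brain (muscle minus brain -2.96 ± 0.27, limma adjusted p = 1.01e-05), and heart minus brain was -2.72. Of 4 glucose entry genes tested, 1 was higher and 2 lower in muscle than in lung, beside 61.6% of all probe sets in either direction. In muscle minus brain, 1 was higher and 1 lower, beside 51.6%. In heart minus lung all 4 passed, beside 52.9%. There Hk1, another hexokinase, was lower (-0.87) and Slc2a8, another transporter, higher (0.80). The call of Hk1 was lost without the lung hypoxia, the control or the fragmentation arrays (limma adjusted p = 0.102, 0.0671 and 0.242), and that of Slc2a8 without the fragmentation arrays (0.0519). Heart minus lung of Slc2a1, -1.12, also lost its call without the fragmentation arrays (0.0719).

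Genes downstream of AKT were higher in muscle than in lung for 7 of 10 tested, and lower for 1, where 61.6% of all probe sets passed in either direction, with a list median of 0.88 against 0.08 over all probe sets. Gys1, muscle glycogen synthase, exceeded its lung level by 2.18 ± 0.17, its brain level by 2.28 ± 0.17 and its heart level by 0.93 ± 0.17 in muscle (limma adjusted p = 3.69e-06, 2.11e-06 and 0.00279). The muscle minus heart call of Gys1 was lost without the control arrays (limma adjusted p = 0.0542). Eif4ebp1 exceeded its brain level by 2.20 ± 0.21 in muscle and 2.44 ± 0.21 in heart. The transcription factor Foxo3 was lower in muscle than in lung (-1.19 ± 0.22) and brain (-1.06 ± 0.22).

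Inhibitors were lower in heart than in lung for 4 of 6 tested and higher for 0, where 52.9% of all probe sets passed in either direction, with a median of -1.25 against 0.03. Ptprf, a receptor phosphatase, was -2.55 ± 0.19, Ptpn1, the phosphatase PTP1B that dephosphorylates the insulin receptor, -1.63 ± 0.23, and Socs3, a cytokine-induced inhibitor, -1.86 ± 0.27 in heart minus lung. In muscle minus lung they were -2.30, -1.86 and -1.08, the last not past the threshold without the fragmentation arrays (limma adjusted p = 0.0529). The fourth, Inppl1, a lipid phosphatase, had a limma adjusted p of 0.0494 in heart minus lung, and 0.156, 0.0803 and 0.221 without the lung hypoxia array, the control arrays or the fragmentation arrays. Its call was also lost with a halved offset (0.0583), with a floor in place of the offset (0.0676) and without the filter (0.0685). In muscle minus brain, 3 of 6 inhibitors were higher and 1 lower, beside 51.6% of all probe sets in either direction. On the list from the receptor to AKT, 2 of 10 genes tested were higher and 3 lower in heart than in lung. Between tissues, nothing is read from how the count of any list compares with the share over all probe sets.

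On the growth factor axis, 3 of 9 genes tested were higher and 4 lower in heart than in lung, beside 52.9% of all probe sets in either direction. Igfbp2 was 9.77-fold and Igfbp6 8.54-fold lower in heart than in lung, both IGF-binding proteins (limma adjusted p = 1.49e-06 and 4.08e-05). Ghr, the growth hormone receptor, exceeded its brain level by 2.61 ± 0.15 in muscle, by 1.96 ± 0.15 in heart and by 0.96 ± 0.15 in lung. Both binding proteins were also lower in brain than in lung, where lung minus brain was 2.12 ± 0.20 for Igfbp2 and 3.58 ± 0.33 for Igfbp6.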

How the data were processed

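The deposited values are linear intensities per probe set and array. Their trimmed mean (without 2% at either end) was 800 on all 8 adipose arrays and on 11 of 12 panel arrays, and 2670 on the brain hypoxia array, as the deposited files show. The authors' summary method and scaling are not given in the sources used here, and no array flags were used. Arrays carry no count of molecules, and their number limits the precision.

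Adipose arrays were grouped by title, kept at the deposited scale, set to at least 97.7 and taken to log2. Panel arrays were quantile normalized and log2(intensity + 97.7) was taken. Probe sets whose mean (panel: highest tissue mean) exceeded the 40th percentile were tested, 7453 in either fit, after leaving out 66 controls. Of the other 12422, the platform annotation gives 1 symbol to 10833, several to 396 and none to 1193. limma 3.58.1 (R 4.3.3, lmFit and eBayes, two-sided) fitted 4 group means in adipose tissue (4 residual degrees of freedom) and tissue plus condition in the panel (6). The fits were tested on simulated data.

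Members, lists and tests were chosen with earlier results of these data known. Named are all member probe sets. From each list and comparison, up to 4 genes with the largest change past the threshold could be named, or the 1 with the smallest p where none passed. The 3 genes closest to Slc2a4, Slc2a3 and Igf1 by Pearson r were also named. Markers named singly (Tnnt3, Myh6, Sftpb, Snap25, Scgb1a1) were picked from the marker lists after their values were seen. Alternatives changed the offset, filter, scaling, blocks and arrays used. Leaving out the brain control or the lung hypoxia array was added after seeing the data.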

Additional observations from a re-analysis of the deposited data

How the results depend on the processing

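Of 21 member differences past the threshold, 14 kept direction and call under every alternative run and none reversed. Of 83 not past it, 7 passed under some alternative. The count of members past the threshold for muscle minus heart was 1 in place of 2 without the filter, with scaling to one trimmed mean, and without the control, the fragmentation or the hypoxia arrays. For heart minus lung it was 4 in place of 2 without the filter, which adds dim probe sets, and 1 without the control or the fragmentation arrays. For lung minus brain it was 2 in place of 4 without the fragmentation arrays. The cause was not tested. In adipose tissue the member count was 0 under every alternative, with each of the 8 arrays left out in turn too. All probe sets past the threshold in Glucose minus Con numbered 565, but 240 to 459 with 1 array left out, 92 without both Con arrays numbered 1, 142 within s4 and 0 within s2 (1189 at an unadjusted p under 0.05). The unfiltered adipose fits called 4, 2, 4 and 3 probe sets, none a member, for hypoxia, hypoxia within Con, hypoxia within Glucose and the difference between these effects. Muscle minus heart called 940 probe sets without the control, 1161 without the fragmentation and 1075 without the hypoxia arrays, against 1843. Same-numbered adipose arrays correlated in their deviations at 0.41 between the Glucose groups and 0.18 between the Con groups. Between a Glucose and a Con group the values were -0.14 to -0.05. This cannot settle whether the numbers pair arrays within Glucose or within Con. In both Glucose groups the array numbered 1 was s4, so number and s code cannot be told apart there. A fit with the replicate number as a block called 466 probe sets and 0 members in Glucose minus Con, and 0 members in the other adipose comparisons. Fits within s2 or s4 leave 1 array per group and were not run for hypoxia within Glucose, hypoxia within Con or their difference. Of 114 differences of listed pathway genes past the threshold, the 95 with the largest changes per list were rerun, and 63 of these kept their call under every alternative. Low signal limits Insr, Irs1 and the dimmer probe sets of Slc2a4 and Slc2a3, and in the panel Igf1 probe set 95546_g_at. In adipose tissue 95546_g_at passed the filter, with a mean log2 level of 11.4 against 10.6 for 95545_at.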
